A study of Mus musculus with 6 samples.

Results

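The PGC-1 coactivators and the factors through which they drive mitochondrial biogenesis were followed in B16F10 cells, a mouse melanoma line, treated with GSK126, an inhibitor of the histone methyltransferase EZH2. The 10 genes were chosen by symbol for their role, with earlier results of these data known, in which Ppargc1a had changed. They were the coactivators Ppargc1a, Ppargc1b and Pprc1, the nuclear receptors Ppara, Ppard, Pparg and Esrra, the transcription factors Nrf1 and Gabpa, and the mitochondrial factor Tfam. All 10 were among the 54838 genes with read counts, and 9 were among the 13601 genes with enough reads to be tested. RNA-seq was done on 3 samples treated with the vehicle DMSO and 3 treated with 10 µM GSK126. Both groups were the same cell line and no genetic change was labelled in either. The duration of treatment was not given in the sources used here. Whether each replicate was its own culture is not stated in the labels, and the p-values therefore reflect only how much these samples vary, and that variation may be technical. In such bulk samples, fewer cells of a type and less RNA per cell cannot be told apart.

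PGC-1α, the product of Ppargc1a, binds no DNA itself. It docks on nuclear receptors such as the PPARs and ERRα (Esrra), and on NRF1, and recruits enzymes that open chromatin at their target genes. NRF1 and the ETS factor GABP (Gabpa encodes its DNA-binding subunit) switch on nuclear genes of the respiratory chain, together with Tfam, whose product enters mitochondria to package and transcribe mitochondrial DNA. PPARs activate fatty acid oxidation. In the melanocyte lineage PGC-1α is known as a target of MITF, the lineage's master transcription factor, and some melanomas are known for high PGC-1α and oxidative metabolism.

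Upstream sequence is shown for the coactivator gene that changed and, as a contrast, for the receptor gene Esrra. RefSeq windows on GRCm38.p6, from 250 bases before to 50 after an annotated start, matched 9 of the 10 genes in 12 windows. Ppargc1b had no window, so its upstream sequence was not searched. The stretches are the parts of those windows that lie before the first annotated exon, written 5′ to 3′ on the gene's own strand, which is the minus strand for both. That of Ppargc1a spans chr5:51567727-51567975 and that of Esrra spans chr19:6921814-6922058. Capitals mark the M-box TCATGTG, read on the other strand as CACATGA, in the first, and the Sp1 motif GGGCGG, read on the other strand as CCGCCC, in the second.
Ppargc1a: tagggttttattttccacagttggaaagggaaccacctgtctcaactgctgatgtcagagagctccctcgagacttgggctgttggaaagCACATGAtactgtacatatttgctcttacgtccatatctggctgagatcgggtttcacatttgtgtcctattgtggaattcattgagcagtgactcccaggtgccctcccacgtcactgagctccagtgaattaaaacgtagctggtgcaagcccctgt
Esrra: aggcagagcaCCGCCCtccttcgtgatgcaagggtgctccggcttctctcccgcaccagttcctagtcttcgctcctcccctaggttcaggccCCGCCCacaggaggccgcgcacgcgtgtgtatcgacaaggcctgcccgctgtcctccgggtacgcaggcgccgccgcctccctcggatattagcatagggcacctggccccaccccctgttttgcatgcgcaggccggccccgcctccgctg
The Ppargc1a window was 48.7% G and C with 5 CpG dinucleotides, against medians of 52.7% and 7 over all 32851 windows. On both strands, 8 motifs were searched. The M-box, a form of the site bound by MITF, was found in the Ppargc1a window alone among the 12, and 3.77% of all windows hold it. The Sp1 motif was found in 7 of the 12 windows, against 35.7% of all windows. These 7 belong to 6 of the 9 genes (Esrra, Nrf1, Ppara, Ppard, Pparg and Tfam). The GABP/ETS motif CCGGAAG was found in the windows of Gabpa and Tfam (8.86% of all windows). The NRF1 motif, GCGCA followed directly by TGCGC, was found in the Ppara window (0.971% of all windows). None of the 12 windows held the E-box CACGTG (7.15% of all windows), the CRE TGACGTCA (1.79%), the ERR half-site AAGGTCA (4.72%) or the PPRE, a direct repeat of AGGTCA with 1 base between the copies (0.0396%). The ERR half-site and the PPRE share the letters AGGTCA and can overlap. A match of letters is a description and shows no binding.

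The libraries held 13594939 to 14713373 counts each. Over all genes, edgeR's quasi-likelihood test with Benjamini-Hochberg adjustment called 1503 of 13601 genes (11.1%) at an adjusted p below 0.05, of which 798 were higher and 705 lower with GSK126. GSK126 replicate 3 stood apart from the other GSK126 libraries on the second principal component (-23.8 against 15.9 and 15.2), and values without it are given beside several results. Ezh2, whose protein GSK126 inhibits, was at 189 ± 4.84 CPM with DMSO and 193 ± 3.47 with GSK126 (SD, n = 3), a log2 fold change of 0.03 (SE 0.04, adjusted p = 0.669 by edgeR). Transcript level does not check an inhibitor of enzyme activity. CPM here is counts scaled to a common library size with TMM factors. All 8 melanocyte markers were detected, with summed levels of 22389 to 23631 CPM with DMSO and 23781 to 25037 with GSK126. Of these, Pmel, Dct, Mitf and Sox10 were called higher and Mlana lower by edgeR. Those called are 62.5% of the 8, against 11.1% of all genes tested. Markers of macrophages, adipocytes and muscle were at or near 0, with summed levels of at most 1.32, 0.593 and 0.356 CPM in any library. The adipocyte genes Adipoq, Cidec and Lep had no read in any library. The 5 fibroblast markers summed to 22.7 to 25.6 CPM with DMSO and 17.1 to 21.8 with GSK126, most of it Col1a2, and none of the 3 tested was called.

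Of the 9 genes tested, 1 rose, Ppargc1a, and the other 8 were not called. That is 11.1% of the 9, equal to the 11.1% called over all genes tested (5.87% were higher and 5.18% lower). No gene was called lower by edgeR, and 2 had a lower level at an unadjusted p under 0.05 (Ppargc1b and Tfam). Such a p, in either direction, was found for 4 of the 9, with Ppargc1a and Ppard higher, and for 27.5% of all genes tested. DESeq2 called 1 lower, Tfam, and limma-voom 0, where they called 5.11% and 5.13% of all genes lower. DESeq2 called 2 of the 9 in all, Ppargc1a and Tfam, against 10.9% of all genes. Without DMSO replicate 1 edgeR called these 2 genes, against 3.83% of all genes, and without DMSO replicate 2 it called 0 of the 9, against 4.18%. The groups did not overlap in CPM for 5 of the 9, against 34.4% of all genes tested. GSK126 was above DMSO for 2 of these, Ppargc1a and Ppard (17.6% of all genes), and below it for 3, Ppargc1b, Esrra and Tfam (16.8%). The median log2 fold change over the 9 was 0.05, and over all genes tested it was -0.00048. The median absolute log2 fold change was 0.20 against 0.16.

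**Figure D1:**
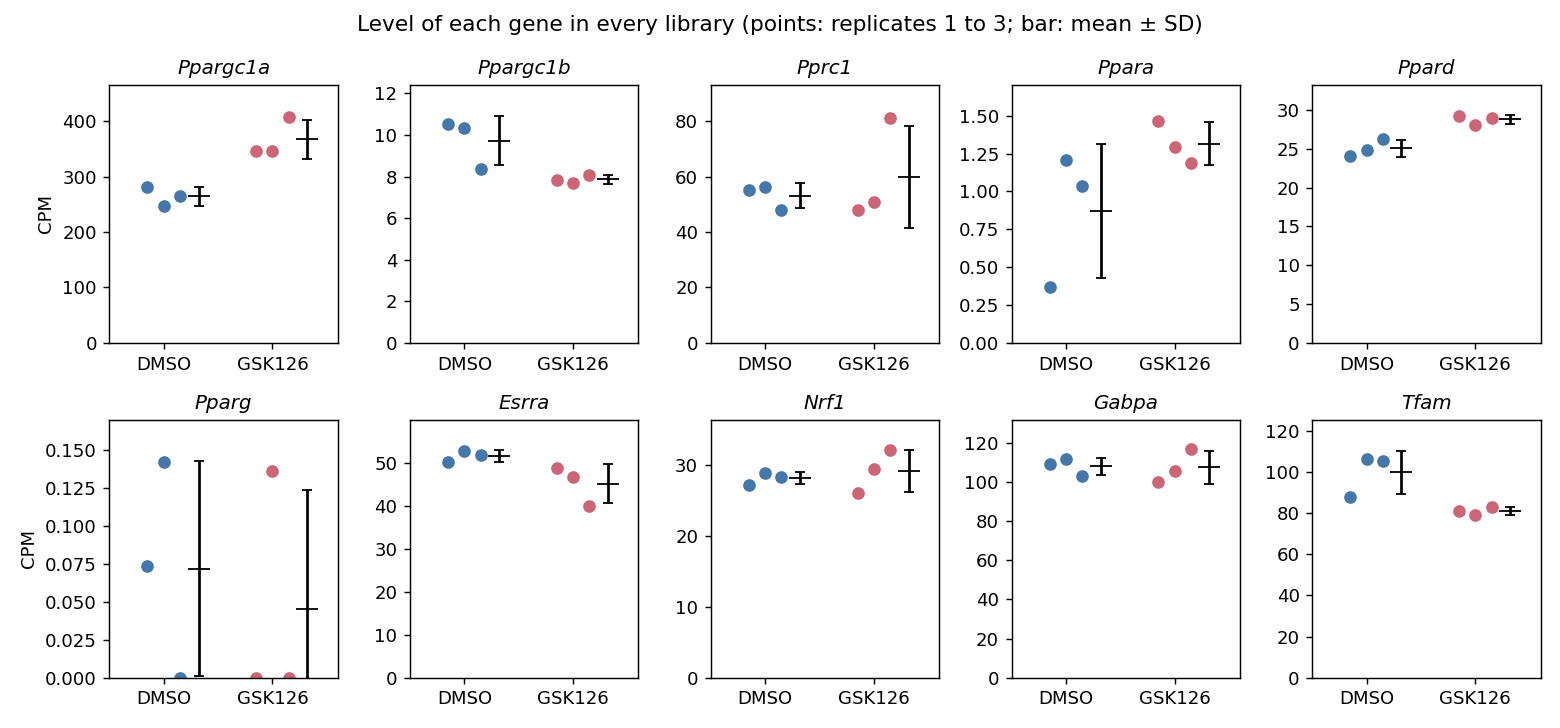
CPM (y axis of each panel) of the 10 genes in every library, with DMSO and GSK126 as separate groups of 3 points and bars for the mean. Ppargc1a separates upward, from at most 282 to at least 347 CPM, while the Tfam points with GSK126 lie together at 79.2 to 82.8, below all 3 DMSO points.

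Ppargc1a (ENSMUSG00000029167, GRCm38 chromosome 5, 51454250 to 51567726, minus strand) encodes PGC-1α. It was counted at 282, 247 and 265 CPM in the DMSO libraries and at 347, 347 and 407 CPM in the GSK126 libraries. Every GSK126 library was above every DMSO library, and GSK126 replicate 3 was the highest. Mean levels were 265 ± 17.5 and 367 ± 34.9 CPM (SD, n = 3), a fold change of 1.39 with a 95% interval of 1.22 to 1.58. The log2 fold change was 0.47 (SE 0.08, adjusted p = 0.0126 by edgeR), and the gene ranked 484 of 13601 by p. Without DMSO replicate 2, the lowest library, it was 0.42 with an adjusted p of 0.0520 by edgeR, short of the threshold. Without GSK126 replicate 3 it was 0.39 with an adjusted p of 0.0137 by edgeR.

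Ppargc1b encodes PGC-1β, which shares the nuclear receptor partners of PGC-1α. Its levels were 10.51, 10.3 and 8.37 CPM with DMSO and 7.82, 7.68 and 8.09 with GSK126, on 112 to 145 reads a library. All GSK126 libraries lay below all DMSO libraries, narrowly so for DMSO replicate 3. The log2 fold change was -0.31 (SE 0.12, adjusted p = 0.154 by edgeR), so the gene did not pass the test. Pprc1 (chromosome 19, 46044886 to 46072915), which encodes the serum-induced relative PRC, was at 55.1, 56.3 and 48.1 CPM with DMSO and at 47.8, 50.8 and 81.1 with GSK126. The groups overlapped, with GSK126 replicate 3 far above the other 5 libraries. Its log2 fold change was 0.17 (SE 0.20, adjusted p = 0.615 by edgeR), and without that library it was -0.11 (adjusted p = 0.476 by edgeR). Pprc1 shares 177 bases of exon with Ldb1 on the other strand, which had 13442 reads over all libraries against 4785. Reads on the shared bases cannot be assigned to either gene, because the strand setting is unknown. Summed over both genes the log2 fold change was -0.07 (adjusted p = 0.506 by edgeR). Most of the summed reads are those of Ldb1, which alone had -0.15, so the sum says little of Pprc1.

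Ppargc1a took a larger share of the coactivator family in every GSK126 library than in any DMSO library. On the FPKM scale, which is per length, Ppargc1a made up 82.1%, 80.0% and 83.6% of the summed level of the 3 coactivators with DMSO, and 87.2%, 86.8% and 84.3% with GSK126. On this scale the groups did not overlap, although GSK126 replicate 3 came within a point of DMSO replicate 3. The mean share was 81.9 ± 1.82% and 86.1 ± 1.61% (SD, n = 3), a difference of 4.22 points (two-sided exact permutation test, p = 0.1, the smallest that 3 against 3 allows). The ratio of Ppargc1a to Ppargc1b was 13.9, 12.4 and 16.4 with DMSO and 23.1, 23.5 and 26.2 with GSK126. This separation was wider, and the log2 ratio differed by 0.77 (exact permutation p = 0.1, again the smallest possible). The ratio of Ppargc1a to Pprc1 overlapped, at 6.70 ± 0.759 and 8.53 ± 1.59 (SD, n = 3, exact permutation p = 0.3). The summed FPKM of the family went from 38.3 ± 2.23 to 50.7 ± 5.59. Shares and sums depend on the length used. The lengths behind the FPKM were 1.79 times the annotated exon length for Pprc1, 1.28 times for Ppargc1a and 1.10 times for Ppargc1b. Per kilobase of annotated exon the mean share of Ppargc1a differed by 4.44 points (exact permutation p = 0.1, again the smallest possible).

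**Figure D2:**
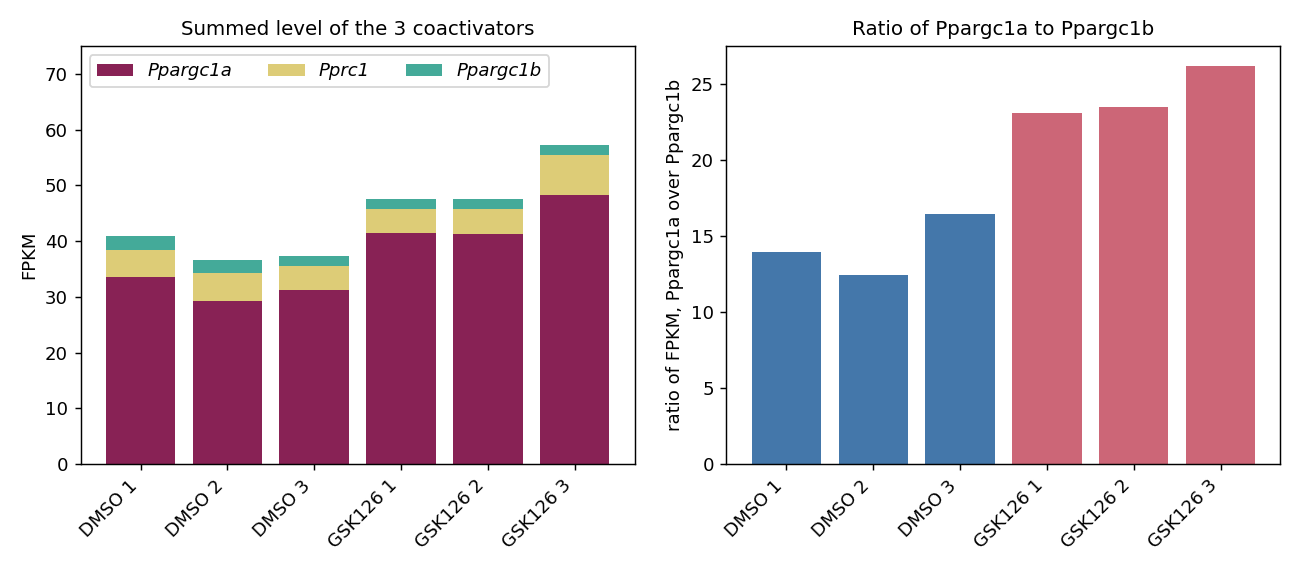
Left, summed FPKM of the 3 coactivators (y axis) in each library as stacked bars; right, the FPKM ratio of Ppargc1a to Ppargc1b (y axis) in each library. Ppargc1a fills at least 80.0% of every bar, and the ratio is 12.4 to 16.4 with DMSO and 23.1 to 26.2 with GSK126.

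Among the nuclear receptors, Ppard was the PPAR with most reads. Ppard (chromosome 17, 28232700 to 28301474) encodes the widely expressed PPARδ. It was at 24.1, 24.9 and 26.2 CPM with DMSO and at 29.2, 28.1 and 29.0 with GSK126. The groups did not overlap, but the log2 fold change of 0.20 (SE 0.07) did not pass the test (adjusted p = 0.120 by edgeR). Ppara (chromosome 15, 85734983 to 85802819), the PPAR of liver fatty acid oxidation, had 5, 17 and 14 reads with DMSO and 21, 19 and 17 with GSK126. The groups overlapped narrowly. Its log2 fold change was 0.58 (SE 0.39, adjusted p = 0.385 by edgeR), with a fold interval of 0.79 to 2.84, which at this depth holds both lower and higher levels. Without DMSO replicate 1, the library with 5 reads, it was 0.22, and without DMSO replicate 2 it was 0.90. Pparg (chromosome 6, 115360951 to 115490399), the regulator of fat cell formation, had 1, 2 and 0 reads with DMSO and 0, 2 and 0 with GSK126, too few to test. On the FPKM scale Ppard held 93.3 ± 3.02% of the summed PPAR level with DMSO and 91.8 ± 1.004% with GSK126 (SD, n = 3, exact permutation p = 0.6).

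Esrra (chromosome 19, 6910977 to 6921813, minus strand) encodes ERRα, the orphan receptor through which PGC-1 acts on respiratory genes. It was at 50.1, 52.8 and 51.8 CPM with DMSO and at 48.6, 46.6 and 40.02 with GSK126. All GSK126 libraries were below all DMSO libraries, and GSK126 replicate 3 was the lowest. The log2 fold change was -0.19 (SE 0.08, adjusted p = 0.188 by edgeR), and without GSK126 replicate 3 it was -0.12 (adjusted p = 0.292 by edgeR). The gene shares 73 bases of exon with Trmt112, and the summed reads gave -0.15 (adjusted p = 0.339 by edgeR).

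Neither Nrf1 nor Gabpa passed the test. Nrf1 (chromosome 6, 30047988 to 30153458) was at 27.3, 29.0 and 28.3 CPM with DMSO and at 26.0, 29.4 and 32.1 with GSK126. Its GSK126 range enclosed its DMSO range, and the log2 fold change was 0.05 (SE 0.09, 95% interval -0.16 to 0.27, adjusted p = 0.760 by edgeR). Without GSK126 replicate 3 it was -0.023. Gabpa (chromosome 16, 84834925 to 84863779) was at 109, 112 and 103.1 CPM with DMSO and at 100.1, 106 and 117 with GSK126. Here too the GSK126 range was the wider, and the log2 fold change was -0.01 (SE 0.07, 95% interval -0.17 to 0.15, adjusted p = 0.956 by edgeR). Without GSK126 replicate 3 it was -0.072. Gabpa shares 397 bases of exon with Atp5j, which had 11607 reads over all libraries against 9114. The summed log2 fold change of that pair was -0.09 (adjusted p = 0.263 by edgeR).

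Tfam (chromosome 10, 71225464 to 71238280, minus strand) encodes the factor that packages mitochondrial DNA and starts its transcription. It was at 87.6, 106 and 105 CPM with DMSO and at 81.0, 79.2 and 82.8 with GSK126. All GSK126 libraries were below all DMSO libraries and close together, and DMSO replicate 1 lay nearest to them. Means were 99.8 ± 10.6 and 81.0 ± 1.79 CPM (SD, n = 3). The log2 fold change was -0.30 (SE 0.08, 95% interval -0.49 to -0.11, adjusted p = 0.0569 by edgeR), just short of the threshold. It passed with DESeq2 (-0.30, adjusted p = 0.0297) and in edgeR without DMSO replicate 1 (-0.39, adjusted p = 0.0255), and leaving out another library gave adjusted p values up to 0.168 by edgeR.

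**Figure D3:**
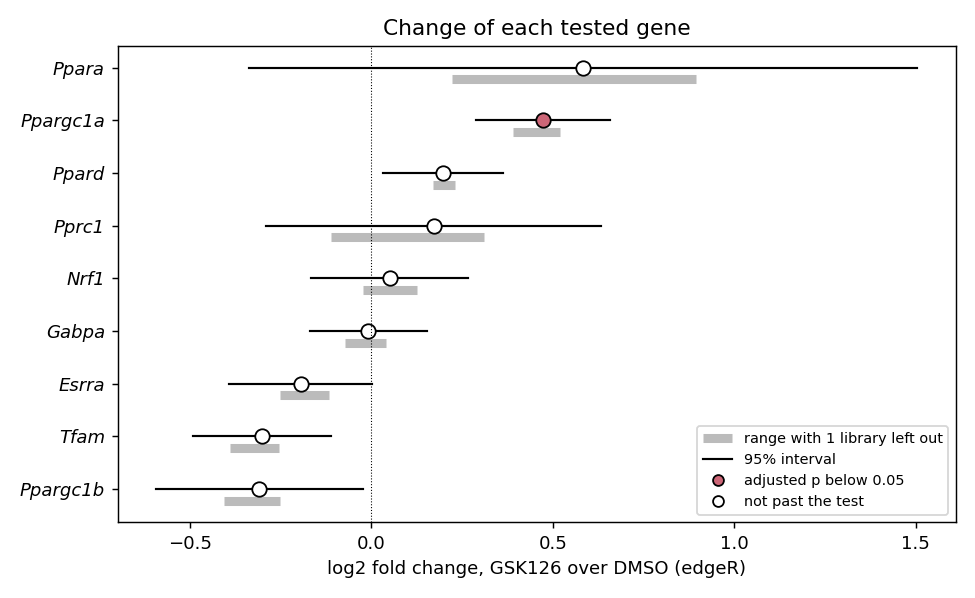
Log2 fold change of GSK126 over DMSO (x axis) for the 9 genes tested, with 95% intervals from edgeR as lines and the range with 1 library left out as grey bars. Ppargc1a (0.47) is the gene called; the intervals of Ppargc1b, Ppard and Tfam leave out 0, but these genes missed the adjusted threshold.

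Compared per length, Ppargc1a was the most abundant of the 10 in both groups, at 31.4 ± 2.11 FPKM with DMSO and 43.6 ± 3.96 with GSK126 (SD, n = 3), above 91.5% of all genes tested over the 6 libraries. With DMSO it was followed by Tfam (18.7), Gabpa (14.9), Esrra (12.6), Pprc1 (4.71), Ppard (2.22), Ppargc1b (2.22), Nrf1 (1.55), Ppara (0.143) and Pparg (0.0173 FPKM). Among neighbours in this order, Ppard and Ppargc1b had overlapping ranges. With GSK126 the order of mean FPKM was the same, while the ranges of Tfam (15.2) and Gabpa (14.9) now overlapped, as did those of Ppargc1b (1.797) and Nrf1 (1.61). Ppard (2.56) no longer overlapped Ppargc1b. These orders depend on the length the authors divided by. Per kilobase of annotated exon, Nrf1 stood above Ppargc1b in both groups, while with GSK126 Gabpa stood above Tfam with overlapping ranges, and those of Esrra and Pprc1 overlapped.

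**Figure D4:**
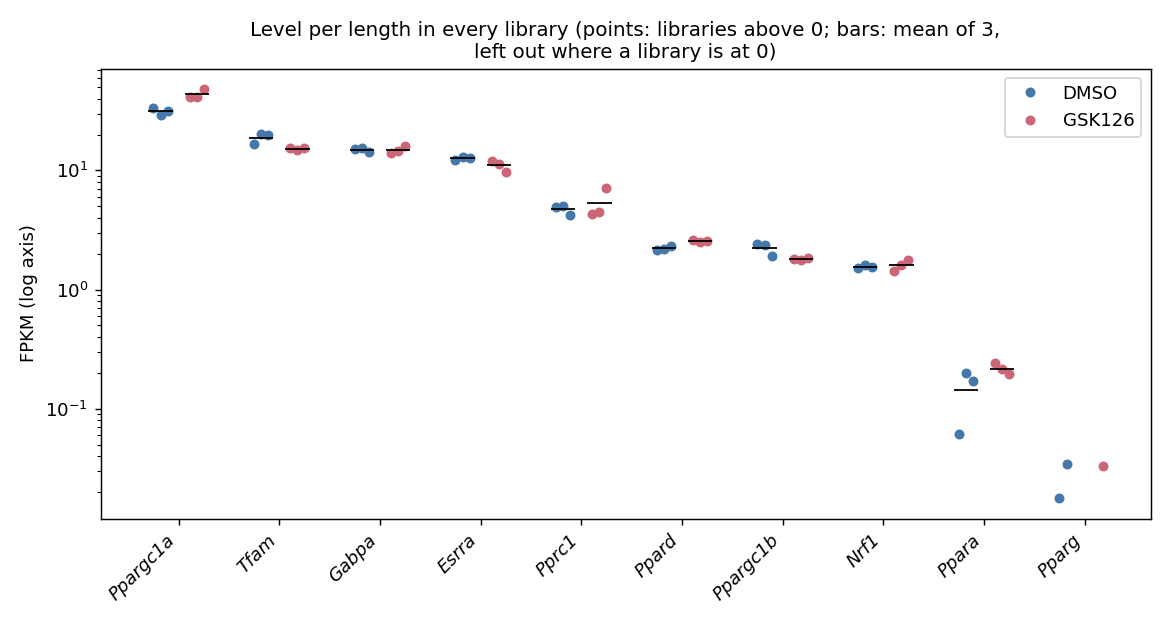
FPKM on a log axis (y) of the 10 genes in every library, DMSO to the left and GSK126 to the right of each gene, with bars for means of 3. Ppargc1a is highest, at 29.3 FPKM or more in every library; Pparg libraries at 0 are not drawn.

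The genes around the coactivators were taken from 7 lists, chosen by role. Of 23 receptor and coregulator partners, 20 were tested and 0 were called by edgeR, DESeq2 or limma-voom, with 4, 3 and 3 at an unadjusted p under 0.05. These are 20%, 15% and 15% of the 20, against 27.5%, 21.4% and 27.7% of all genes tested. Their median log2 fold change was -0.01, and -0.05 without GSK126 replicate 3. The corepressor gene Ncor1, the most abundant of them, had a log2 fold change of 0.06 (adjusted p = 0.684 by edgeR).

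Of 28 regulators upstream of PGC-1, 27 were tested: 3 rose, 1 fell and 23 were not called, with a median of 0.09. The 4 called are 14.8% of the 27, near the 11.1% called over all genes. Mitf rose from 679, 656 and 614 CPM to 974.9, 957 and 1016 CPM. The groups lay far apart, and the log2 fold change was 0.60 (SE 0.05, adjusted p = 0.001 by edgeR), called in all 6 fits that left out a library. Sox10, a neural crest factor that acts on Mitf, rose from 309, 321 and 315 CPM to 350, 364 and 352 CPM (0.17, SE 0.04, adjusted p = 0.033 by edgeR). Prkaa2, the α2 catalytic subunit of AMPK, rose from 34.0, 35.9 and 32.4 to 41.0, 41.7 and 46.9 CPM (0.34, SE 0.08, adjusted p = 0.037 by edgeR). These increases were modest, and the groups did not overlap. Kat2a, which encodes the acetyltransferase GCN5 that restrains PGC-1α, fell from 164, 168 and 175 to 141, 153 and 136 CPM (-0.24, SE 0.06, adjusted p = 0.045 by edgeR). Leaving out 1 library at a time ended the calls of Sox10 and Kat2a in 5 of 6 fits and that of Prkaa2 in 6 of 6.

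Among the 24 genes of mitochondrial DNA replication and transcription, all tested, 19 had a log2 fold change below 0, against 50.1% of all genes tested. The median was -0.15, and the groups did not overlap for 13, or 54.2%, against 34.4% of all genes tested. By the test, 1 gene rose, 0 fell and 23 were not called, and 7 had an unadjusted p under 0.05 by edgeR (5 by DESeq2 and 8 by limma-voom). That is 29.2% of the 24 by edgeR, close to the 27.5% of all genes tested. The gene called was Rrm2b, a p53-induced ribonucleotide reductase subunit that supplies nucleotides outside S phase. It rose from 27.6, 26.7 and 28.8 to 32.2, 33.9 and 36.2 CPM (0.30, SE 0.08, adjusted p = 0.046 by edgeR). Its call was lost in all 6 fits without a library, and DESeq2 did not make it. Over the settings tried, 18 to 20 of the 24 were below 0.

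Of 34 respiratory and import genes known as targets of NRF1, GABP or ERRα, 1 rose, 2 fell and 31 were not called. The called genes are 8.82% of the 34, against 11.1% over all genes. Idh3a, a subunit of the Krebs cycle isocitrate dehydrogenase, fell from 250, 248 and 254 to 214, 221 and 208 CPM (-0.22, SE 0.04, adjusted p = 0.017 by edgeR). Tomm70a, an import receptor of the outer membrane, fell from 260, 258 and 265 to 216, 227 and 239 CPM (-0.20, SE 0.05, adjusted p = 0.042 by edgeR). For both the groups did not overlap, yet leaving out 1 library ended the call in 4 of 6 fits for Idh3a and in 5 of 6 for Tomm70a. In this list 26 of 34 (76.5%) had a log2 fold change below 0, against 50.1% of all genes tested. The median was -0.07. Without GSK126 replicate 3, 16 of 34 were below 0 and the median was 0.01.

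Of 32 PPAR targets 21 were tested and 1 was called, Acot1, an acyl-CoA thioesterase. It rose from 9.11, 7.68 and 9.63 to 12.8, 12.6 and 12.3 CPM (0.51, SE 0.11, adjusted p = 0.030 by edgeR), without overlap between groups, and the call was lost in all 6 fits without a library. The other 20 were not called, and the 1 called is 4.76% of the 21, against 11.1% over all genes. The median was 0.08, and 0.04 without DMSO replicate 2. The remaining 11 were too low to test, and 4 of them had no read in any library. Of 10 antioxidant and uncoupling genes, 9 were tested and 1 fell. This was Prdx3, the mitochondrial peroxiredoxin, which went from 96.2, 95.5 and 99.7 to 84.4, 86.1 and 79.8 CPM (-0.22, SE 0.05, adjusted p = 0.038 by edgeR). The groups did not overlap, but the call was lost in all 6 fits without a library. The 1 gene is 11.1% of the 9, as over all genes. The list's median was -0.17, and -0.092 without GSK126 replicate 3.

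The 13 protein genes of the mitochondrial genome, which TFAM helps to transcribe, had a median close to 0. None was called by edgeR, DESeq2 or limma-voom (0, 0 and 1 at an unadjusted p under 0.05), the groups overlapped for all 13, and the median log2 fold change was 0.01, with a range of -0.03 (without DMSO replicate 1) to 0.05 (without DMSO replicate 3). The most abundant, mt-Co1, had a log2 fold change of 0.10 (SE 0.05, adjusted p = 0.266 by edgeR).

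**Figure D5:**
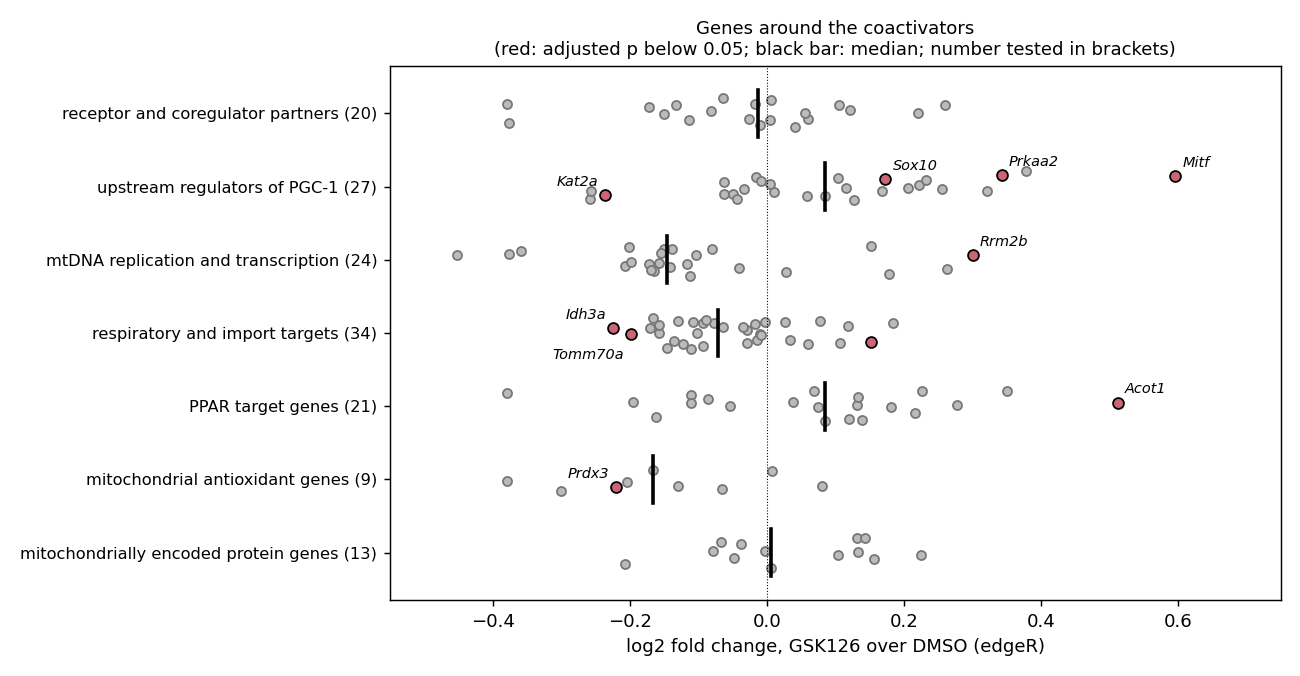
Log2 fold change of GSK126 over DMSO (x axis) of each tested gene in the 7 lists (rows), with red points for adjusted p below 0.05 and black bars for medians. Mitf (0.60) and Acot1 (0.51) lie farthest right among the genes called, and the mitochondrial DNA list is centred at -0.15.

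By Pearson correlation of log2(CPM + 0.5) over the 6 libraries, the genes most like Ppargc1a among 9874 compared included Usp47 (0.996), Abca3 (0.993), Epb41l5 (0.993) and Fam114a1 (0.993). Among genes looked up by name, values were 0.95 for Mitf, 0.85 for Ppard, 0.84 for Sox10, 0.51 for Pprc1, 0.40 for Nrf1 and 0.16 for Gabpa. They were -0.92 for Esrra, -0.86 for Tfam and -0.71 for Ppargc1b. The 6 points share the treatment difference, so these values describe likeness of profile and carry no test. Abca3, a lipid transporter gene, and Epb41l5 were called higher, with log2 fold changes of 0.34 (adjusted p = 0.030 by edgeR) and 0.53 (adjusted p = 0.011 by edgeR). Usp47 and Fam114a1 had 0.11 and 0.22 and were not called.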

How the data were processed

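RNA was sequenced from 3 DMSO and 3 GSK126 samples of B16F10 cells. Per the submitters' processing notes, CASAVA 1.8 and HISAT2 were used with GRCm38.p4/mm10. No counting tool, strand setting or annotation release is given in the sources used here. Raw counts for every gene were deposited by the authors, 1 file per sample (13594939 to 14713373 per library), which were used for all tests. The authors' FPKM were proportional to the counts within a gene and used for levels between genes.

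Samples were grouped by the treatment label. Counts were fitted in R 4.3.3 with edgeR 4.0.16 (filterByExpr, TMM, quasi-likelihood F test, group as the only term), and p-values were adjusted by Benjamini-Hochberg over 13601 genes, threshold 0.05. Intervals of fold changes use the fit's degrees of freedom. Code was tested on simulated data. Alternatives were DESeq2 1.42.0, limma 3.58.1 (voom, and log2(FPKM + 1 or 0.1) where mean FPKM reached 0.5), RLE factors, no filter, a replicate block, each library left out, and reads summed with genes that share exons. Exon overlaps are from GENCODE M21, and promoter windows from RefSeq.

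The members and gene lists were chosen with earlier results of these data known. Named genes were all members, Ezh2, up to 4 called genes of each list (by p), or its most abundant gene where none was called, and the 5 genes most correlated with Ppargc1a among those of at least 5 CPM; some of these are not reported here.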

Additional observations from a re-analysis of the deposited data

How the results depend on the processing

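The increase of Ppargc1a kept its direction in all 15 settings (log2 fold change 0.39 to 0.52) and missed the threshold in 1, without DMSO replicate 2 (0.42). The count of the 10 genes changed was 1, with 2 in DESeq2 and 0 to 2 when a library was left out. Tfam passed with DESeq2 (-0.30) and without DMSO replicate 1 (-0.39). Directions reversed for Pprc1 without GSK126 replicate 3 (-0.11) and summed with Ldb1 (-0.068), whose reads outnumber those of Pprc1. They also reversed for Nrf1 without GSK126 replicate 3 (-0.023). For Gabpa they reversed without DMSO replicate 2 (0.0153), GSK126 replicate 1 (0.0406) or GSK126 replicate 2 (0.00469). Without a library the log2 fold changes of Pprc1, Nrf1 and Gabpa ran from -0.11 to 0.31, -0.023 to 0.13 and -0.072 to 0.041.

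Genes changed over all numbered 1503, and 899 with no filter, 867 on unfiltered log2(FPKM + 1), and 529 to 1243 without a library (lowest without DMSO replicate 1). Called upstream regulators were 1 with no filter, 2 on unfiltered FPKM and 1 to 3 without a library. For mitochondrial DNA genes the count was 0 with DESeq2, with no filter, on log2(FPKM + 1) filtered or not, and without any library. Respiratory and import genes called were 1 with DESeq2 and 0 to 3 without a library. PPAR targets were 0 with no filter, on unfiltered FPKM and without any library. Antioxidant genes were 0 with DESeq2, no filter and unfiltered FPKM, and 0 to 1 without a library. The cause of these changes was not tested, beyond fewer samples or more genes tested by construction.

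Deviations from the group means had correlations of -0.042 to 0.067 for same-numbered replicates and -0.10 to 0.079 for differently numbered ones. These values show no pairing by number, but cannot exclude it. With the replicate block 408 genes changed in all, with 1 upstream regulator and 0 mitochondrial DNA, 0 respiratory, 0 PPAR target and 0 antioxidant genes. Ppargc1a stayed called (adjusted p = 0.044 by edgeR). Depth limits Ppara (5 to 21 reads a library) and Pparg (at most 2).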
